A study of Mus musculus with 5 samples.

Results

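The genes described here are the drug and organic ion transporters measured in the liver of 5 male mice. They are all genes named Slco, Slc22a, Abcb, Abcc or Abcg with a number, with 1 gene left out, that had a probe set (a group of array probes read as 1 value) assigned to a single gene symbol. That gave 62 genes of 19938 with such a probe set: 15 Slco, 23 Slc22a, 8 Abcb, 10 Abcc and 6 Abcg genes. The mice were wildtype C57BL/6N animals aged 5 to 6 months, and the only group analysed here carried 2 treatments. Each mouse had been injected intraperitoneally with streptozotocin, a toxin of pancreatic beta cells used to cause diabetes, at 65 mg/kg on 5 successive days when 10 to 16 weeks old. From 2 weeks later, each ate chow with bezafibrate, a lipid-lowering drug that activates PPAR receptors, for 8 weeks. The labels name chow with 0.25% and with 0.5% bezafibrate by weight and do not say which of them a mouse ate, so effects of dose or of age at injection cannot be separated from the spread between mice. With no untreated liver among the arrays used here, the data show levels after both treatments and the spread between mice, and no treatment effect. The mice are called 1 to 5 after their titles, and 5 values in a row always run from mouse 1 to mouse 5.

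Hepatocytes take drugs, bile acids and hormones out of the blood across their sinusoidal membrane, mainly through organic anion transporting polypeptides (OATPs, the Slco genes) and organic ion carriers (Slc22a genes). ATP-driven pumps of the ABC family then move parent compounds and conjugates either into bile across the canalicular membrane or back into blood across the sinusoidal membrane. Many of these genes are targets of the nuclear receptors CAR, PXR and FXR or of the stress-responsive factor NRF2, and several OATP genes differ between male and female mouse liver.

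The deposited values are log2 signals, so a difference of 1 is a doubling, and levels of different probe sets are not comparable because their probes differ. A brightness floor was set on each array from the 1212 probe sets for olfactory or vomeronasal receptors, at their 95th percentile. The floors were 5.58, 5.70, 5.79, 6.07 and 5.72, and 76.0% of the receptor probe sets had their highest value in mouse 4. Of all tested genes, 8.47% were highest and 36.5% lowest in that mouse. All 6 hepatocyte marker genes measured lay above the floor on all 5 arrays, and their mean deviated by 0.03, -0.04, 0.02, 0.03 and -0.05 over the mice. Markers of several other cell types peaked most often in mouse 1: 7 of 8 Kupffer cell and macrophage markers, 6 of 8 endothelial, 5 of 8 stellate cell, both erythroid and all 4 tested skeletal muscle markers did so, against 23.9% of all tested genes. Of the tested cholangiocyte, lymphocyte and exocrine pancreas markers 0 of 5, 0 of 2 and 0 of 3 peaked there. In tissue RNA, fewer cells of a type and less RNA per cell cannot be told apart.

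Of the 62 transporter genes, 36 (58.1%) exceeded the floor in every liver, as did 60.0% of genes on the array. A further 9 lay above it in 1 to 4 livers and 17 in none. At this floor the 3 functional classes differed. All 5 sinusoidal efflux genes and 6 of 7 canalicular genes were above it in every liver, against 3 of 5 measured sinusoidal uptake genes. With the floor at the 99th percentile of the receptor probe sets, 28 transporter genes exceeded it in every liver. The genes with a mean above that floor were 3 for efflux, 3 for uptake and 6 for canalicular, so the difference between efflux and uptake depended on the floor. The 17 genes below the floor in every liver included 8 of 11 OATP genes known mainly from other organs (Slco1a5, Slco1a6, Slco1c1, Slco4c1, Slco5a1, Slco6b1, Slco6c1 and Slco6d1). The others were Slco1a1, Abcb1b, Abcb5, Slc22a2, Slc22a14, Slc22a16, Slc22a19, Slc22a22 and Slc22a29. A gene below the floor could not be told from probes without target, which does not show that its transcript was absent.

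**Figure D1:**
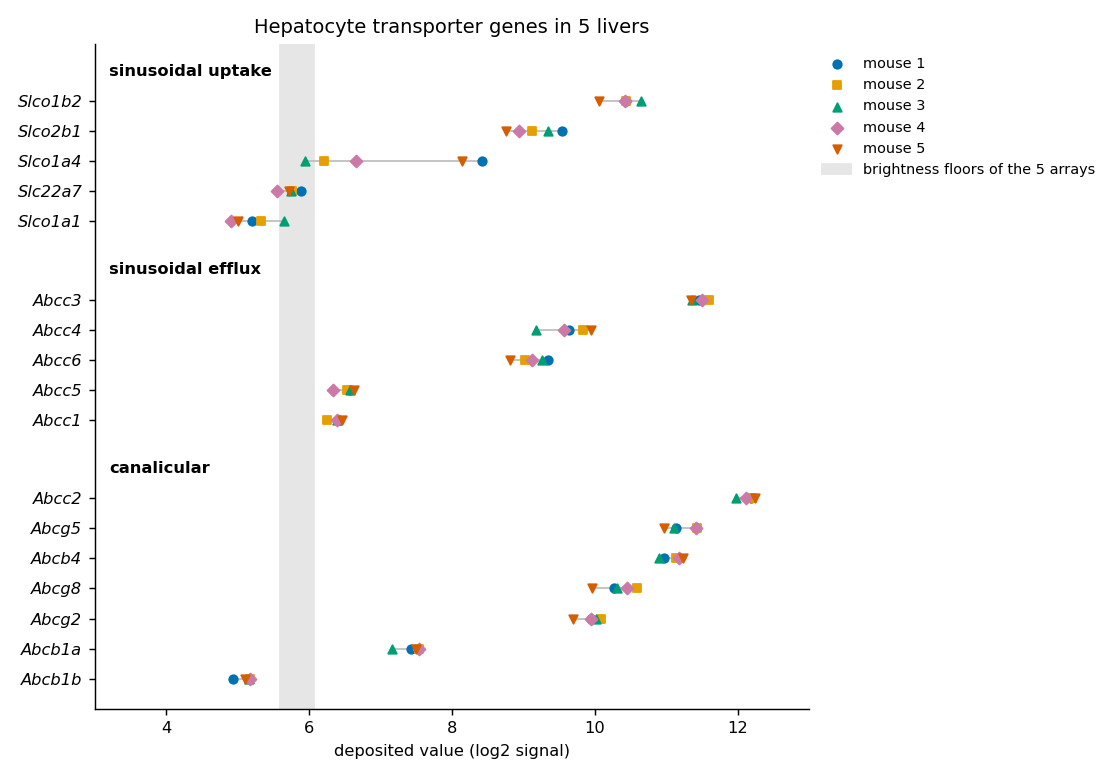
Deposited log2 signal (horizontal axis) of the sinusoidal uptake, sinusoidal efflux and canalicular transporter genes, with 1 symbol per mouse and a grey line over the range of the 5 mice; the grey band spans the brightness floors of the 5 arrays. Slco1a4 covers 5.94 to 8.42, while Slco1a1 and Abcb1b lie below the floor in every mouse.

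The spread between mice was tested for 42 transporter genes whose mean lay above the floor. The variance over the 5 livers was compared with the variance expected at the same level by an upper-tail F test in limma, with Benjamini-Hochberg adjustment over all 14589 probe sets tested. Only Slco1a4 passed an adjusted p of 0.05, 2.38% of the tested members, against 0.285% of all tested genes. Before adjustment 10 of 42 (23.8%) had a p under 0.05, against 6.38% of all tested genes. The median SD was 0.14 over the 42 transporter genes and 0.12 over all tested genes, on the log2 scale. Between the highest and the lowest liver 31 genes (73.8%) differed by less than 1.5-fold, against 92.1% of all tested genes, and 3 (7.14%) by more than 2-fold, against 1.78%. Those 3 were Slco1a4, Slc22a30 and Slc22a27. Of these, Slc22a27 lay under the floor in mice 2, 3 and 4, so its fold is not measured. It entered the test and these counts only through its values in mice 1 and 5. Among the transporter genes that did not pass, the lowest adjusted p in limma was 0.0863.

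**Figure D2:**
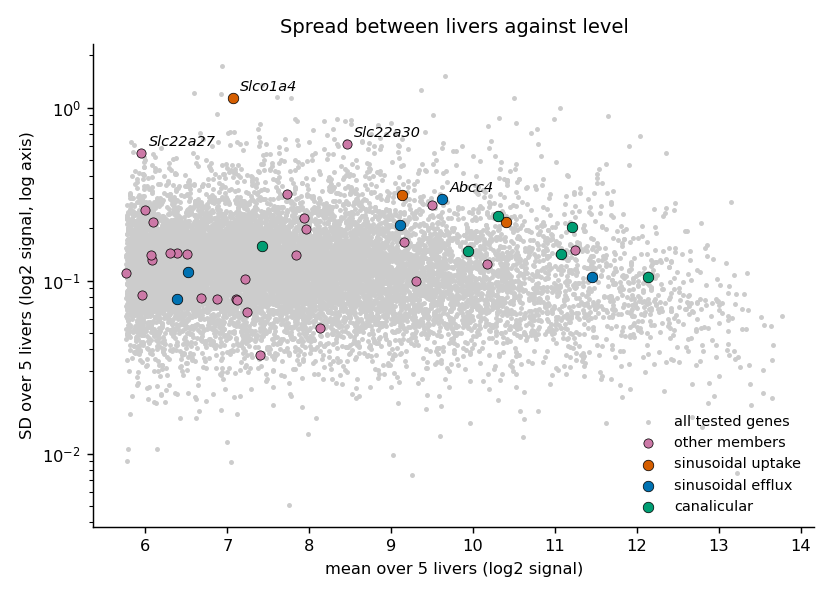
SD over the 5 livers (vertical log axis, log2 signal) against the mean level (horizontal axis, log2 signal) of every tested gene in grey, with the 42 tested transporter genes coloured by class. Slco1a4 (SD 1.14) stands above the other transporter genes, followed by Slc22a30 (0.61) and Slc22a27 (0.54).

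Sinusoidal uptake genes had the widest spread of the 3 classes, with a median SD of 0.31 over the 3 tested genes, against 0.11 over 5 efflux genes and 0.15 over 6 canalicular genes. With the floor at the 99th percentile of the receptor probe sets, 3 efflux genes remained tested and their median SD was 0.21, above that of the canalicular genes. In the main limma test, all 3 uptake genes had an unadjusted p under 0.05, and 1 passed after adjustment. Slco1a4 encodes OATP1A4, which takes up bile acids, cardiac glycosides and steroid conjugates. It read 8.42, 6.20, 5.94, 6.66 and 8.14 (mean 7.07 ± 1.14, SD, n = 5). Mice 1 and 5 were high and mice 2, 3 and 4 were low, and the 2 sets of livers were 8.14 or more and 6.66 or less. The highest liver was 5.59-fold above the lowest, and the variance was 75.8 times that expected (limma, adjusted p = 0.0118). The lowest liver, mouse 3, was above the floor of its array (5.79) but near it, so the size of this fold is uncertain. Mice 2 and 4 had floors of 5.70 and 6.07. The call was lost without mouse 4 (adjusted p = 0.0976, although the SD was then 1.29), without the robust step of the variance fit (0.0819), and when probe sets with no or several symbols were tested too (0.166). The Kupffer cell markers, which peaked in mouse 1, had a mean level of 8.43 to 9.02 per mouse and deviated by 0.38, -0.16, -0.11, -0.21 and 0.10 from their own means. The 4 tested skeletal muscle markers deviated by 0.63, -0.32, -0.07, -0.02 and -0.21 (mean level 6.54 to 7.49), with Myh4 and Mylpf below the floor. The part of these cells in the spread of Slco1a4 was not tested.

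The other uptake genes varied less and did not pass the test. Slco1b2 encodes the OATP that is the counterpart of human OATP1B1 and OATP1B3, carriers of bilirubin, bile acids and statins. It read 10.43, 10.43, 10.65, 10.42 and 10.05 (mean 10.40 ± 0.22, SD, n = 5; limma, adjusted p = 0.768), close together in mice 1, 2 and 4 and lowest in mouse 5, without which the SD was 0.11. Slco2b1, which encodes a broad-range OATP, read 9.53, 9.12, 9.35, 8.93 and 8.75 (mean 9.14 ± 0.31, SD, n = 5; adjusted p = 0.475 in limma). Mouse 5 was thus the lowest liver for both Slco1b2 and Slco2b1 and the second highest for Slco1a4. Over Slco1b2 and Slco2b1 the mean deviation was 0.21, 0.01, 0.23, -0.09 and -0.37, and with Slco1a4 included it was 0.59, -0.28, -0.22, -0.20 and 0.11, so 1 gene set the class mean.

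Slco1a1 encodes OATP1A1, an uptake carrier more abundant in male than in female mouse liver. It read 5.20, 5.33, 5.65, 4.91 and 5.00, below the floor on every array in these male livers, and was not tested. Slc22a7, which encodes the organic anion carrier OAT2, read 5.89, 5.75, 5.75, 5.55 and 5.71 and exceeded the floor in mice 1 and 2 only. Slco1a4 and Slco1a1 are next to each other in the RefSeq gene order on chromosome 6, in a run with Slco1c1, Slco1b2, Slco1a6 and Slco1a5. Gm5724, between Slco1b2 and Slco1a4, and Gm6614, between Slco1a1 and Slco1a6, also lie in the run and are not members by name. Of the 6 Slco genes, only Slco1a4 and Slco1b2 exceeded the floor, and only Slco1a4 passed the variance test. The promoter windows of these neighbours, the most variable uptake gene and the one not seen above the floor, are printed from RefSeq on GRCm38.p6. Each window runs from 250 bases before to 50 after the annotated start, 5′ to 3′ on the gene's own strand. Slco1a4 lies on the minus strand at chr6:141856171-141856470 and Slco1a1 on the minus strand at chr6:141946913-141947212. Capitals mark CCAAT (written ATTGG on this strand) in Slco1a4, and TATAAA and the nuclear receptor half-site AGGTCA, on either strand, in Slco1a1.
Slco1a4: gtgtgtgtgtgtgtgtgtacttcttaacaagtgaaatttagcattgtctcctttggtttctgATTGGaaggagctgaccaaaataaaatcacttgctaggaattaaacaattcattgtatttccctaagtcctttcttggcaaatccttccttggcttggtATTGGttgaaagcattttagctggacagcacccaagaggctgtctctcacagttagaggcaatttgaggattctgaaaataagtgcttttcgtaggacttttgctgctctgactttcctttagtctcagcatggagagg
Slco1a1: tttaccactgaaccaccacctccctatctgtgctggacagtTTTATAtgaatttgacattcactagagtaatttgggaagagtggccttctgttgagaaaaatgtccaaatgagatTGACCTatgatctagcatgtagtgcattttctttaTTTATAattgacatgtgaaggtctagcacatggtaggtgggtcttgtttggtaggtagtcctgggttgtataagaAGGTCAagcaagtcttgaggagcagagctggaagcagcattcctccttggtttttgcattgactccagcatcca
The Slco1a4 window held CCAAT on the opposite strand at 188 and 89 bases before the start, and neither TATAAA nor AGGTCA. The Slco1a1 window held TATAAA on the opposite strand at 209 and 99 bases before the start, and AGGTCA on the opposite strand at 134 and on its own strand at 24 bases before it. Counted on both strands, CCAAT occurs in 37.4%, TATAAA in 13.6% and AGGTCA in 16.3% of the 32851 promoter windows in the table. They occur in 21, 11 and 9 of the 50 transporter genes that had a window. A gene counted if any of its windows matched, and the 50 genes had 60 windows. Counts of genes and shares of windows are thus not the same unit. The half-site AGGTCA repeated head to tail, with a spacing of 1 or of 4 bases (direct repeats 1 and 4), was in 0.04% and 0.015% of windows and in 0 of the 50 transporter genes in either spacing. A match is a description of the letters only.

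Targets of CAR and PXR outside the transporters were set beside Slco1a4, since Slco1a4 is known as a PXR target in mouse liver. Of 10 such genes tested, 1 passed the variance test: Cyp2c55, a cytochrome P450 gene, at 8.47, 8.18, 7.41, 7.96 and 9.44 (limma, adjusted p = 0.0492). That call was lost in 13 of 15 alternative settings, in which the adjusted p lay between 0.00661 and 0.334. Without mouse 5 its SD was 0.45, against 0.75 over all 5. Mice 1 and 5 were also the high pair and mouse 3 the lowest for Cyp2c55. The whole list deviated by 0.15, 0.01, -0.24, -0.07 and 0.15. Of its members, 5 peaked in mouse 5 and 4 in mouse 1, against 19.2% and 23.9% of all tested genes, and 5 were lowest in mouse 3, against 18.9%. Besides Cyp2c55, only Gstm3 and Cyp2c29 on the list had mice 1 and 5 as their high pair. The cytochrome P450 gene Cyp3a11 deviated by -0.09, -0.09, -0.15, 0.13 and 0.20, high in mice 4 and 5. Cyp2b10, another such gene, deviated by 0.21, 0.20, -0.51, 0.11 and -0.01, high in mice 1 and 2. Ces2a, a carboxylesterase gene, read 9.55, 9.25, 9.50, 8.86 and 8.46 (SD 0.46, adjusted p = 0.172 in limma), lowest in mouse 5. Nr1i2, which encodes PXR, read 9.91, 10.13, 9.67, 10.06 and 10.27 (SD 0.23, limma, adjusted p = 0.766), lowest in mouse 3 and highest in mouse 5. Nr1i3, which encodes CAR, read 10.40, 10.43, 10.25, 10.65 and 10.39 (SD 0.15), lowest in mouse 3 and highest in mouse 4.

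**Figure D3:**
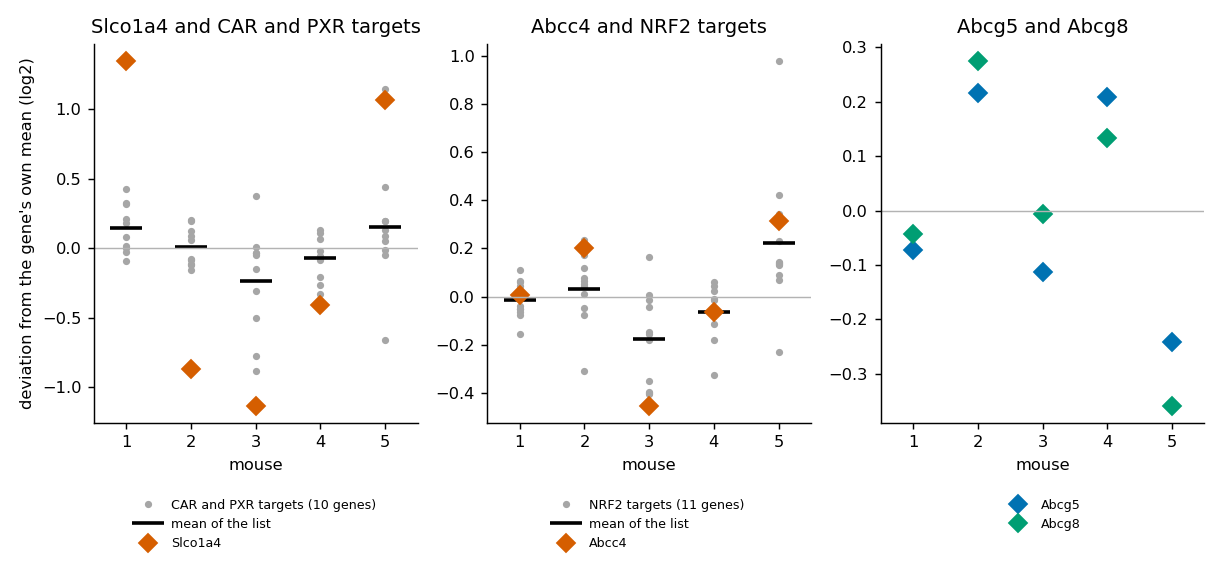
Deviation of each gene from its own mean over the 5 livers (vertical axis, log2, with a scale of its own in each panel) by mouse, for Slco1a4 beside 10 CAR and PXR targets, Abcc4 beside 11 NRF2 targets, and Abcg5 with Abcg8. Slco1a4 is high in mice 1 and 5, Abcc4 is lowest in mouse 3 and highest in mouse 5, and both sterol transporter genes are high in mice 2 and 4.

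Sinusoidal efflux genes, whose pumps return compounds to the blood, had a median SD of 0.11 over the mice, close to the 0.12 of all tested genes, with larger SDs for Abcc4 and Abcc6. None of the 5 passed the variance test in limma, and 1 had an unadjusted p under 0.05. Abcc3 encodes MRP3, which exports glucuronides. It read 11.46, 11.60, 11.36, 11.50 and 11.35 (mean 11.45 ± 0.11, SD, n = 5), a range of 1.19-fold. Abcc4 encodes MRP4, which exports cyclic nucleotides, sulfated steroids and bile acids. It read 9.63, 9.83, 9.17, 9.56 and 9.94 (mean 9.63 ± 0.30, SD, n = 5), a range of 1.70-fold that did not pass the test (limma, adjusted p = 0.483). Mouse 3 lay 0.39 below the next liver, and without it the SD was 0.17.

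Abcc6, which encodes a pump needed for ATP release from hepatocytes, read 9.35, 9.02, 9.26, 9.12 and 8.81 (mean 9.11 ± 0.21, SD, n = 5; limma, adjusted p = 0.935). Its lowest liver was mouse 5, the highest liver of Abcc4. Abcc5, which encodes the nucleotide exporter MRP5, read 6.57, 6.53, 6.57, 6.33 and 6.62 (SD 0.11). Abcc1, which encodes the glutathione conjugate exporter MRP1, read 6.42, 6.25, 6.39, 6.39 and 6.46 (SD 0.08). Both stayed within 1.22-fold.

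NRF2 targets outside the transporters were set beside Abcc4, a known NRF2 target. None of 11 tested passed the variance test in limma, and 4 had an unadjusted p under 0.05. Of the 11, 10 were highest in mouse 5, against 19.2% of all tested genes, and 7 were lowest in mouse 3, against 18.9%. These are the livers in which Abcc4 was highest and lowest. The list deviated by -0.01, 0.03, -0.18, -0.07 and 0.22, and Abcc4 by 0.01, 0.20, -0.45, -0.07 and 0.31. Hmox1, which encodes heme oxygenase 1, read 8.92, 8.55, 8.46, 8.54 and 9.84 (limma, adjusted p = 0.0932). Nqo1, which encodes a quinone reductase, read 8.64, 8.72, 8.20, 8.42 and 9.02 (limma, adjusted p = 0.524). Abcc3, also known as an NRF2 target, was lowest in mouse 5. The letters TGACNNNGC, the core of the NRF2 binding motif, occurred in 12.4% of all windows. Counting a gene if any of its windows matched, they occurred in 9 of 50 transporter genes, including Abcc4, Abcc2 and Abcb1a.

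Canalicular genes had a median SD of 0.15, and none of 6 passed the limma test, with 2 at an unadjusted p under 0.05. Abcc2 encodes MRP2, which exports bilirubin glucuronides and glutathione conjugates into bile. It read 12.18, 12.20, 11.97, 12.11 and 12.24 (mean 12.14 ± 0.11, SD, n = 5), with mouse 3 lowest by 0.14. Abcb4 encodes the phospholipid translocase that supplies phosphatidylcholine to bile. It read 10.97, 11.13, 10.90, 11.18 and 11.23 (mean 11.08 ± 0.14, SD, n = 5), again lowest in mouse 3 and highest in mouse 5. Abcg2 encodes BCRP, which exports drugs and sulfate conjugates. It read 9.94, 10.09, 10.01, 9.95 and 9.70 (mean 9.94 ± 0.15, SD, n = 5), with mouse 5 lowest. The genes of P-glycoprotein, the multidrug pump, differed from each other in that Abcb1a was above the floor in all livers and Abcb1b in none. Abcb1a read 7.42, 7.53, 7.16, 7.54 and 7.49 (SD 0.16), and Abcb1b 4.93, 5.17, 5.15, 5.17 and 5.10.

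Abcg5 and Abcg8 encode the partners of the heterodimer that secretes cholesterol and plant sterols into bile. Abcg5 read 11.14, 11.43, 11.10, 11.42 and 10.97 (mean 11.21 ± 0.20, SD, n = 5; limma, adjusted p = 0.749). Abcg8 read 10.27, 10.59, 10.31, 10.45 and 9.96 (mean 10.31 ± 0.24, SD, n = 5; adjusted p = 0.707 in limma). Both were high in mice 2 and 4 and lowest in mouse 5, and both had an unadjusted p under 0.05. Their deviations were -0.07, 0.22, -0.11, 0.21 and -0.24 for Abcg5 and -0.04, 0.27, -0.01, 0.13 and -0.36 for Abcg8. Without mouse 5 the SD of Abcg8 was 0.14. The genes lie head to head on chromosome 17 with annotated starts 110 bases apart, so their promoter windows share 209 bases (chr17:84682962-84683170). The windows are shown because the genes shared both their highest and their lowest liver. Abcg5 lies on the minus strand at chr17:84682962-84683261 and Abcg8 on the plus strand at chr17:84682871-84683170, the first of its 2 annotated windows in the table and the one that meets that of Abcg5. Capitals mark AGATAA, the GATA factor motif, on either strand (TTATCT on the opposite one).
Abcg5: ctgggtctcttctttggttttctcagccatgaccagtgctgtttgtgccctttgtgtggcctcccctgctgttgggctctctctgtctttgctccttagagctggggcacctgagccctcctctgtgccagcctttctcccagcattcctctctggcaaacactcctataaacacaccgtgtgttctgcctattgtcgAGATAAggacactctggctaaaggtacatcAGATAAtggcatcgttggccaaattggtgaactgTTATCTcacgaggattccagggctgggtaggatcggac
Abcg8: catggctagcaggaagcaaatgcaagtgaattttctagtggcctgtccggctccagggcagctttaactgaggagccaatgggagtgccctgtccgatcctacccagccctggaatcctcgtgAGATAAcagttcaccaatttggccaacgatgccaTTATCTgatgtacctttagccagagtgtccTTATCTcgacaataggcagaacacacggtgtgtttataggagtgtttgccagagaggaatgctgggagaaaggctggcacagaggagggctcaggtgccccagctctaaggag
The motif occurred 3 times in each window, and all 3 matches lay in the shared stretch. It was present in any window of 6 of the 50 transporter genes with a window, and in 11.2% of all windows. Nr1h4, which encodes FXR, read 9.83, 9.64, 9.74, 9.57 and 9.55. Nr0b2, which encodes the FXR-induced repressor SHP, read 9.70, 10.61, 9.59, 9.83 and 9.64 (SD 0.42, limma, adjusted p = 0.191). It was highest in mouse 2, as Abcg5 and Abcg8 and 25.5% of all tested genes were. Nr1h3, also a transcriptional regulator gene, read 10.03, 9.99, 9.90, 9.76 and 9.76, low in mice 4 and 5.

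**Figure D4:**
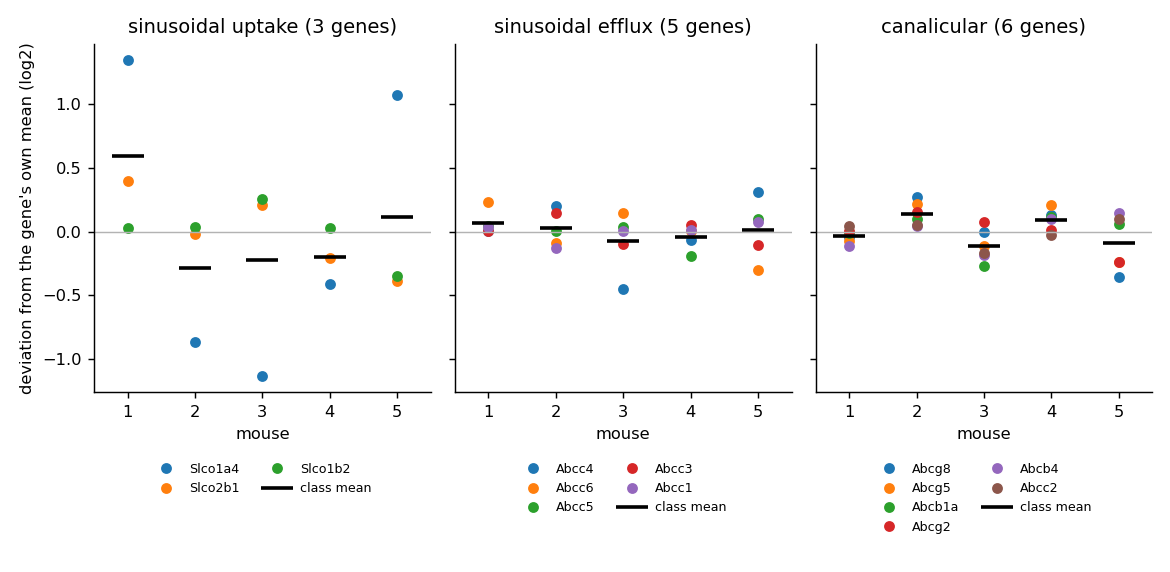
Deviation of each tested gene from its own mean over the 5 livers (vertical axis, log2) by mouse, with the class mean as a bar, for sinusoidal uptake, sinusoidal efflux and canalicular genes on 1 shared scale. Slco1a4 gives the widest points in the uptake panel, and the class means of efflux and canalicular genes stay between -0.11 and 0.14.

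Set side by side, the class means ran differently over the mice. The uptake mean was highest in mouse 1 (0.59), which Slco1a4 set. Without Slco1a4 it was highest in mouse 3 (0.23) and lowest in mouse 5 (-0.37). The efflux means were 0.07, 0.03, -0.07, -0.04 and 0.02, and the canalicular means -0.03, 0.14, -0.11, 0.09 and -0.09. Of the 6 tested canalicular genes, 3 were highest in mouse 2 (25.5% of all tested genes were), 3 were lowest in mouse 3 (18.9%) and 3 lowest in mouse 5 (21.6%). No test of a difference between the classes was made, since their members are few and were chosen by function. With 1 liver left out at a time the median SD lay between 0.26 and 0.36 for uptake, 0.11 and 0.13 for efflux, and 0.14 and 0.18 for canalicular genes. Without mouse 4 the uptake median, 0.29, was over 4 genes, because Slc22a7 was then tested as well.

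Carriers of ergothioneine and of carnitine, which brings fatty acids into mitochondria, were all 3 tested. None passed in limma, and 1 had an unadjusted p under 0.05. Slc22a5 encodes OCTN2, the carnitine carrier. It read 9.33, 9.93, 9.22, 9.57 and 9.46 (mean 9.50 ± 0.27, SD, n = 5; limma, adjusted p = 0.603), with mouse 2 highest and an SD of 0.15 without it. Slc22a21, which encodes the mouse carnitine carrier OCTN3, read 6.09, 6.23, 5.92, 5.92 and 6.17, above the floor in all but mouse 4. Slc22a4, which encodes the ergothioneine carrier OCTN1, read 7.38, 7.24, 7.20, 7.13 and 7.13 (SD 0.10). The 3 genes are neighbours on chromosome 11, and mouse 2 was highest for Slc22a5 and Slc22a21 but not for Slc22a4. Ppara, which encodes the fibrate receptor PPAR alpha, read 10.79, 10.75, 10.80, 10.78 and 10.45, close in mice 1 to 4 and lowest in mouse 5.

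The largest spreads after Slco1a4 were in a run of mouse Slc22a genes on chromosome 19, related to organic anion carriers. In RefSeq order the run is Slc22a19, Slc22a26, Slc22a27, Slc22a28, Slc22a29, Slc22a30, Slc22a8 and Slc22a6. Slc22a30 read 9.04, 8.36, 9.13, 8.05 and 7.73 (mean 8.46 ± 0.61, SD, n = 5), a range of 2.64-fold that did not pass the test (limma, adjusted p = 0.0863). Slc22a27 read 6.57, 5.27, 5.66, 5.81 and 6.44 (mean 5.95 ± 0.54, SD, n = 5), with an adjusted p of 0.144 in limma. Its values in mice 2, 3 and 4 lay under the floors of their arrays, so the fold between livers is not measured, and it entered the test only through its values in mice 1 and 5. With the arrays shifted to 1 common median both passed, with adjusted p-values of 0.0211 for Slc22a30 and 0.0233 for Slc22a27 in limma. The livers in which Slc22a27 exceeded the floor were those in which Slco1a4 was high, whereas Slc22a30 was lowest in mouse 5. Slc22a26 read 6.57, 4.97, 5.20, 5.23 and 5.31, above the floor in mouse 1 alone and not tested. Its SD was 0.64, and 0.15 without mouse 1. Slc22a29 lay below the floor, between 5.42 and 5.62. These genes are closely related copies, so a probe may read more than 1 of them, and the split of signal between them is uncertain. Slc22a8 and Slc22a6, which encode the kidney organic anion carriers OAT3 and OAT1, were near the floor: Slc22a8 read 6.00, 5.80, 6.37, 6.09 and 6.22 (SD 0.22), and Slc22a6 lay between 5.86 and 6.05. Of 6 kidney tubule markers 4 (Umod, Slc12a1, Kap and Lrp2) were below the floor on all arrays. The remaining markers, Slc34a1 (mean 6.25) and Aqp2 (mean 6.97), were above it on all 5.

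**Figure D5:**
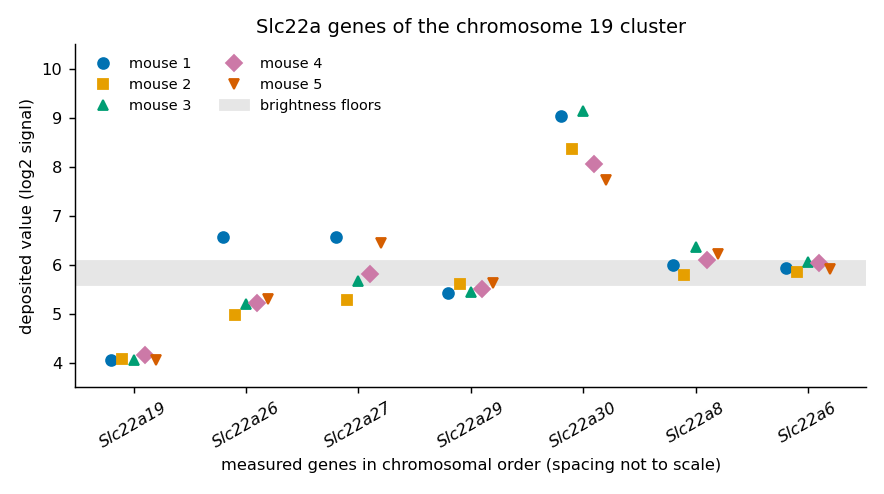
Deposited log2 signal (vertical axis) of the measured Slc22a genes of the chromosome 19 run in chromosomal order, spacing not to scale, with 1 symbol per mouse and the brightness floors as a grey band. Slc22a30 spans 7.73 to 9.13, Slc22a27 is above the band in mice 1 and 5, and Slc22a26 only in mouse 1.

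Several OATP genes and their neighbours are known to differ by sex, so sex-biased genes outside the transporters were listed too. Of 8 tested male-biased genes 1 passed, Elovl3, a fatty acid elongase gene, at 10.99, 11.36, 11.42, 10.57 and 9.58 (limma, adjusted p = 0.0203, lost in 6 of 15 alternatives). Without mouse 5 the SD of Elovl3 was 0.39, against 0.75 over all 5. Cyp7b1, an oxysterol hydroxylase gene, read 9.52, 9.68, 10.32, 9.28 and 8.84 (limma, adjusted p = 0.092). Hsd3b5, a male-specific steroid dehydrogenase gene, was below the floor in every liver, as Slco1a1 was. The 8 tested male-biased genes were all above the floor in every liver. The male-biased list deviated by 0.06, 0.11, 0.36, -0.13 and -0.39, and 6 of its 8 genes were highest in mouse 3, against 22.9% of all tested genes. Of 4 tested female-biased genes, 1 passed: Cyp2b13, a cytochrome P450 gene, read 8.22, 8.72, 6.99, 9.30 and 8.44 (limma, adjusted p = 0.0297, lost in 8 of 15 alternatives). Without mouse 3 its SD was 0.47. Acot3, an acyl-CoA thioesterase gene on the same list, read 10.37, 10.55, 9.76, 10.71 and 10.86. All 4 were lowest in mouse 3, against 18.9% of all tested genes, and Slco1a4 was lowest there too. The list deviated by -0.05, 0.14, -0.56, 0.34 and 0.13, and its highest mean was in mouse 4, where 8.47% of all tested genes peaked, while Slco1a4 was highest in mouse 1.

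Among the remaining members, the organelle transporter gene Abcb10, which acts in mitochondrial heme supply, had the largest SD. It read 8.02, 7.83, 8.02, 7.40 and 7.39 (SD 0.32, limma, adjusted p = 0.594), low in mice 4 and 5. Its deviations were 0.29, 0.10, 0.29, -0.34 and -0.34. Both measured erythroid markers, Alas2 and Slc4a1, lay above the floor in every liver, with a mean level of 7.52 to 8.30 per mouse and mean deviations of 0.45, -0.13, 0.32, -0.34 and -0.30. The part of erythroid cells in the spread of Abcb10 was not tested. Abcb8, another mitochondrial half-transporter gene, read 8.15, 8.15, 7.92, 7.69 and 7.86 (SD 0.20), lowest in mouse 4, as were 36.5% of all tested genes. Abcg3, a rodent gene of the Abcg family, read 6.31, 5.64, 6.07, 6.09 and 5.87 (SD 0.25) and was under the floor in mouse 2. Slc22a15, a carrier of zwitterions, read 8.06, 8.19, 7.99, 7.59 and 7.84 (SD 0.23, and 0.15 without mouse 4). Slco2a1, the prostaglandin carrier gene, read 9.24, 9.16, 9.07, 8.92 and 9.36 (SD 0.17). At the even end, Slco3a1 had an SD of 0.04 and Abcc9, which encodes a sulfonylurea receptor subunit, of 0.05. The 9 tested genes of no named class had a median SD of 0.14, and 0 of them had an unadjusted p under 0.05 in limma.

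Other liver genes were tabulated beside the transporters, with 6.38% of all tested genes at an unadjusted p under 0.05 and a median SD of 0.12 over them. Of 11 tested hepatobiliary carrier genes outside the name patterns 0 passed in limma, with 2 at an unadjusted p under 0.05 and a median SD of 0.16. Slc17a2, a phosphate carrier family gene, had the largest SD at 0.27, followed by Slc51b, which encodes a subunit of the basolateral bile acid exporter, at 0.24. Among 7 scaffold and membrane partner genes 0 passed, with 0 at an unadjusted p under 0.05, and the largest SDs were 0.16 (Ezr, ezrin) and 0.15 (Pdzk1, a scaffold protein that holds OATPs at the membrane). Of 14 transcriptional regulators 0 passed and 3 had an unadjusted p under 0.05, with a median SD of 0.15. The largest SDs were those of Nr0b2 and Cebpa (0.24), a hepatocyte transcription factor gene. Genes of the pericentral zone (0 of 9 passed, 5 at an unadjusted p under 0.05) and periportal zone (0 of 6 passed, 2 at an unadjusted p under 0.05) had median SDs of 0.20 and 0.12 and their largest SDs in Cyp1a2 (0.30), Slc1a2 (0.28), Hal (0.32) and Pck1 (0.27).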

How the data were processed

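Total RNA of 5 livers was measured, 1 array per mouse, on Affymetrix whole-transcript arrays, after column extraction with a DNase step, per the labels' protocols. The values are log2 signals that the authors deposited as 1 number per probe set and array, made with RMA in Affymetrix Expression Console 1.2, per the submitters' processing notes. RMA subtracts background, equalises array distributions and summarises probes, and it compresses differences near background. The sources used here do not name the arrays that entered it. Array medians lay between 6.22 and 6.31.

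The table held 35556 probe sets, of which the platform annotation gave 1 symbol to 21789, several to 1621 and none to 12146. Only probe sets with 1 symbol named a gene. Where a gene had several, the one of highest mean was taken, which concerned 1 member, Abcb5. All 62 members matched the RefSeq gene table (GRCm38.p6). 1 gene with a matching name is not reported here. No member was dropped, and 20 whose mean lay under the floor of the means, 5.76, were not tested.

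An intercept-only model was fitted in limma 3.58.1 with statmod 1.5.0 (R 4.3.3), and variances were tested against a robust trend on mean level with 6.21 prior degrees of freedom. Whether 1 liver lay apart was judged by its gap to the next liver over the whole range. Other steps used Python 3.11.15, numpy 2.4.6, pandas 2.3.3 and scipy 1.17.1, and matplotlib 3.10.9 drew the plots. There were 15 alternatives: other normalizations, floors, variance fits and probe set rules, and each mouse left out. Arrays hold no molecule counts, so their number limits the precision. Nothing in the labels gives technical replicates, so the spread includes technical spread and p-values describe these 5 livers.

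Named with values were all genes of the uptake, efflux, canalicular and carnitine classes, any other member that passed, the 8 other members with the largest SD, members with 1 liver apart, and, of each outside list, the 2 genes with the largest SD, those that passed, and Nr1i2, Nr1i3, Nr1h4 and Ppara. Any other gene was named after its values were seen. The members and lists were chosen with earlier results of these data known.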

Additional observations from a re-analysis of the deposited data

Results flagged for a closer look

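The highest or lowest liver of a gene was set against the other 4 for 94 transporter genes, class and list values and named genes. In 7 of them, that liver lay apart by more than Dixon's 95% limit allows, which chance alone gives in about 1 in 20 groups. Such a liver was found for 5.65% of the tested genes and 6.39% of all genes. Among the members, Slc22a26 was apart in mouse 1 (6.57, against 4.97 to 5.31 in the others), and Abcc10, an ABC exporter gene, in mouse 2 (7.24, against 7.05 to 7.09). Abcb1b was lowest in mouse 1 (4.93), Slc22a19 highest in mouse 4 (4.17) and Slco4c1 highest in mouse 3 (4.15), and these 3 lay below the floor in every liver. Outside the members, Nr0b2 was apart in mouse 2 (10.61) and Ppara in mouse 5 (10.45).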

How the results depend on the processing

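There were 15 alternatives, of which each value was recomputed under those that bear on it. Of the 26 named transporter genes with a test, the call or its absence was kept in 375 recomputations, gained in 2 and lost in 3. Only Slco1a4 had a call, lost in 3 of 15 alternatives, so the 375 are mostly of genes that stayed without one. For the 22 named genes outside the transporters, recomputed after seeing the data, the call or its absence was kept in 299. A call was gained in 2 (Cyp7b1 and Hmox1, with arrays shifted to 1 median) and lost in 27. The adjusted p in limma lay between 0.00661 and 0.334 for Cyp2c55, 0.00122 and 0.191 for Elovl3, and 0.00296 and 0.303 for Cyp2b13. The count of probe sets passing, 52 as reported, was 142 with arrays shifted to 1 median, 29 with the floor required on all arrays, 18 with the 99th percentile floor, 18 without robust fitting, 24 with no trend on level, 31 with the brightest probe set per gene and 0 with all probe sets (1385 at 0.05 before adjustment). Leaving out 1 mouse gave 0 to 69, the 0 without mouse 4 (864 before adjustment at the same threshold), 34 without mouse 2 and 30 without mouse 3. Of the transporter genes 1 passed as reported, against 3 with arrays shifted to 1 median (Slco1a4, Slc22a27 and Slc22a30), 0 without robust fitting (7 before adjustment), 0 with all probe sets (3 before adjustment), and 0 to 1 with a mouse left out, 0 without mouse 4 (10 before adjustment). Over all alternatives the adjusted p of Slco1a4 in limma lay between 0.000287 and 0.166. The median SD of the efflux genes, 0.112, was 0.135 after quantile normalization, 0.138 with arrays shifted to 1 median, 0.21 with the 99th percentile floor, which left fewer genes, and 0.113 to 0.129 with a mouse left out. The other causes were not tested. The SDs of several even genes rested on 1 liver. Without mouse 3, SDs were 0.06 for Abcb1a and 0.05 for Abcc2. SDs were 0.04 for Abcc5 without mouse 4 and 0.03 for Abcc1 without mouse 2. They were 0.07 for Abcg2 without mouse 5 and 0.06 for Slc22a4 without mouse 1. Slco1a1, below the floor in every liver, had an SD of 0.29, and of 0.19 without mouse 3. No paired analysis was possible because there is 1 group of mice.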

Other observations

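One probe set is annotated to Slc22a28, Slc22a29 and Slc22a30 together and was therefore left out of the members. It read 8.71, 8.42, 9.11, 8.39 and 7.99 in mice 1 to 5 (mean 8.53, SD 0.42). Mouse 3 was its highest and mouse 5 its lowest liver, as for the probe set of Slc22a30 alone, and it was not tested with the members.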
